A study of Mus musculus with 12 samples.

Results

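Mitochondrial ribosomal protein genes were examined in lists of histone H3 lysine 36 acetylation (H3K36ac) peaks from spermatogonia of WT and *Sirt7*-/- mice. Members were chosen by name, as the mouse protein-coding genes whose symbol is Mrpl or Mrps followed by a number and at most 1 letter. This gave 78 of the 21468 protein-coding genes that had a known strand, 49 for the large subunit (Mrpl) and 29 for the small subunit (Mrps), on 17 chromosomes. The samples were 3 WT and 3 *Sirt7*-/- 129S1/Sv males at postnatal day (Pnd) 5, 1 mouse per sample, numbered replicates 2, 3 and 4 in each genotype. The *Sirt7*-/- mice lack the SIRT7 deacetylase in every cell of the body, not in germ cells alone. Testis cells were enriched for spermatogonia by plating, which depletes somatic cells without removing all of them, and 50000 cells entered each immunoprecipitation. Each list held the regions where H3K36ac reads exceeded the same sample's input, with the authors' fold over input and -log10 q for each peak. A gene was counted as having a peak when any part of a peak lay within 3 kb of its start, and a gene without a peak was only not called at the authors' threshold.

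Mitochondrial ribosomes translate the few proteins that the mitochondrial genome still encodes, all of them membrane subunits of the respiratory chain and ATP synthase. Their RNAs come from mitochondrial DNA, but every protein of the particle is encoded in the nucleus, made in the cytosol and imported. H3K36ac is a mark of active promoters, and SIRT7 is a deacetylase known to act on it.

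The WT lists held 906, 64 and 294 peaks in replicates 2, 3 and 4, and the *Sirt7*-/- lists 2840, 2045 and 2591. The lists do not hold the number of reads behind each library, and the part of depth in the difference in list length was not tested. Of 12 spermatogonial markers, 5 (*Etv5*, *Dazl*, *Gfra1*, *Uchl1* and *Zbtb16*, the gene of PLZF) had a promoter peak, each in 1 *Sirt7*-/- sample, and none had one in a WT sample. Of 19 markers of Sertoli, Leydig, peritubular, immune and endothelial cells, the Sertoli markers *Inha* and *Sox9* had one, *Inha* in 2 *Sirt7*-/- samples and *Sox9* in 1, and none had one in a WT sample. These shares, 41.7 and 10.5%, stood beside 19.3% of all protein-coding genes with a *Sirt7*-/- peak, and no spermatogonial marker was called in more than 1 sample, so the lists gave little to check the cell type with.

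Promoters of 3 members that carried peaks in all 3 *Sirt7*-/- samples are shown first, because the later comparisons of position and sequence turn on windows like these. They are RefSeq sequences of GRCm38.p6, written 5′ to 3′ on the gene's strand, from 250 bases before the start to 50 after it. Capitals mark the letters CCGGAAG (an ETS-family core), GCGCATGC (an NRF1-type core) and AAGATGG (a YY1-type core), searched on both strands. *Mrps18b* lies at chr17:35916391-35916690 on the minus strand, *Mrps7* at chr11:115603890-115604189 on the plus strand and *Mrps6* at chr16:92058086-92058385 on the plus strand.
Mrps18b: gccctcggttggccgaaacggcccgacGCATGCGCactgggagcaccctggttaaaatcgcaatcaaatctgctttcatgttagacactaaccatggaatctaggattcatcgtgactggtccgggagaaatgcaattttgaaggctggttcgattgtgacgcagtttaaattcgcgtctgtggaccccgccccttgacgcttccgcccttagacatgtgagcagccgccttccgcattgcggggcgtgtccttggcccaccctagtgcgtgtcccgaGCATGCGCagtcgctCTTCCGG
Mrps7: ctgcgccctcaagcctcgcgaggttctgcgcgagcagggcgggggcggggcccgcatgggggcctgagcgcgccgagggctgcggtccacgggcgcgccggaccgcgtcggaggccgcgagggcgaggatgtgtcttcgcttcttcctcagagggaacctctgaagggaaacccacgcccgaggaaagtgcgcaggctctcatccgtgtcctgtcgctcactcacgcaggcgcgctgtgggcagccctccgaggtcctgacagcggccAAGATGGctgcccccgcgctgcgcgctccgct
Mrps6: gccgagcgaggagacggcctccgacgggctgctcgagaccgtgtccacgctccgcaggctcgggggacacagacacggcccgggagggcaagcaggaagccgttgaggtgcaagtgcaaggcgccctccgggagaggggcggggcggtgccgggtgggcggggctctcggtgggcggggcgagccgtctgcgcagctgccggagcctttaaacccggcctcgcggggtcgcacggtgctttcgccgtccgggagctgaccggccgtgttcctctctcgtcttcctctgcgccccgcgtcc

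*Mrps18b* held NRF1-type letters at both ends of the window and ETS letters at its downstream end, *Mrps7* held YY1-type letters just after the start, and *Mrps6* held none of them. The 3 windows contained 25, 38 and 39 CG dinucleotides. For contrast, the next 3 are the first members in alphabetical order that had no peak in any sample and a listed start close to the one tested. *Mrpl10*, a protein of the ribosome stalk, lies at chr11:97041332-97041631, *Mrpl12*, the stalk protein it anchors, at chr11:120484387-120484686, and *Mrpl16*, a protein near the peptidyl transferase centre, at chr19:11770165-11770464, all on the plus strand.
Mrpl10: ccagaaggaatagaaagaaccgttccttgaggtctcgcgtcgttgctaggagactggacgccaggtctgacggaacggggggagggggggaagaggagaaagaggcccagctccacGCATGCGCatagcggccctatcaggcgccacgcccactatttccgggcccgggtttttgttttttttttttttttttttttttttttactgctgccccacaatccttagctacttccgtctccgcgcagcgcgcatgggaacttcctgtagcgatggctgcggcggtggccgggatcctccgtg
Mrpl12: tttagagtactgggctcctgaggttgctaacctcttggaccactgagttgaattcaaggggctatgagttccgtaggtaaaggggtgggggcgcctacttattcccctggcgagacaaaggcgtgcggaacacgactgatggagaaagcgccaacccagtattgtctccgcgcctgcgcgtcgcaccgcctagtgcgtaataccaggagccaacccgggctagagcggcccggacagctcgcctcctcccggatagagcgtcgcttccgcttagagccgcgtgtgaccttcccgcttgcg
Mrpl16: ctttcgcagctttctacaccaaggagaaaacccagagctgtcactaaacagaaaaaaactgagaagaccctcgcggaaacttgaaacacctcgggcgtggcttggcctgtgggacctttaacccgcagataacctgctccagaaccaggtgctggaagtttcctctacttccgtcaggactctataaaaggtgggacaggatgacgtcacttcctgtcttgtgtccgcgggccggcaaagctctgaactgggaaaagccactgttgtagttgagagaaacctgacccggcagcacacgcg

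*Mrpl10* held NRF1-type letters, while *Mrpl12* and *Mrpl16* held none, and the 3 windows contained 24, 26 and 14 CG dinucleotides. *Mrpl10* and *Mrpl12*, without a peak in any of the 6 lists, were close to *Mrps18b* in CG content.

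More mitochondrial ribosomal protein genes had a promoter peak in each *Sirt7*-/- list than in any WT list. In WT samples a peak was found at 5 of 78 members in replicate 2 (6.41%, against 4.38% of all protein-coding genes), at 1 in replicate 3 (1.28%, against 0.317%) and at 0 in replicate 4 (against 1.35%). A count of 0 of 78 allows a share of up to 3.85% if 3 counts are taken as the floor, and up to 4.62% by the exact 95% interval used for the other shares. In *Sirt7*-/- samples the counts were 17 in replicate 2 (21.8%, against 13.2%), 7 in replicate 3 (8.97%, against 9.73%) and 16 in replicate 4 (20.5%, against 11.7%). The exact (Clopper-Pearson) 95% intervals of these 3 shares were 13.2 to 32.6%, 3.68 to 17.6% and 12.2 to 31.2%. The background shares lay at the lower bound of the interval in replicate 2, near the middle in replicate 3 and just under the bound in replicate 4. The 2 genotypes did not overlap in these counts, with *Sirt7*-/- replicate 3 closest to WT.

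The mean was 13.3 ± 5.51 members (SD, n = 3) in *Sirt7*-/- and 2.0 ± 2.65 in WT samples, a difference of 11.3 (two-sided exact permutation p = 0.1, the smallest that 3 samples against 3 can give). All protein-coding genes moved the same way with list length, from 433 ± 453 to 2481 ± 374 genes. Divided by the share of all protein-coding genes in the same list, the members' share was 1.46, 4.05 and 0 in WT replicates 2, 3 and 4 and 1.65, 0.922 and 1.75 in *Sirt7*-/- replicates 2, 3 and 4. On this scale the genotypes overlapped, at 1.84 ± 2.05 in WT and 1.44 ± 0.451 in *Sirt7*-/- samples (two-sided exact permutation p = 0.9). The WT value of 4.05 rested on 1 gene, *Mrps35*. Without WT replicate 3 the WT mean was 0.732 and the difference turned to 0.708. Relative to the other genes of the same list, no difference between genotypes was resolved for the members.

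**Figure D1:**
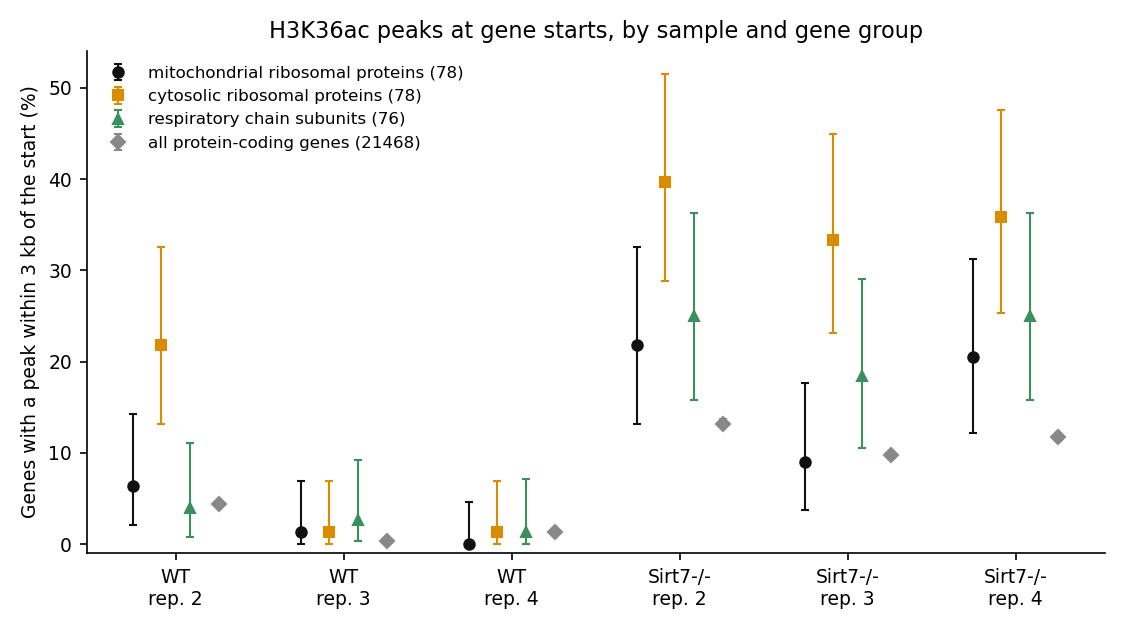
Share of genes (%) with an H3K36ac peak within 3 kb of the start in each of the 6 samples, for 78 mitochondrial ribosomal protein genes (black circles), 78 cytosolic ribosomal protein genes (orange squares), 76 respiratory chain subunit genes (green triangles) and 21468 protein-coding genes (grey diamonds), with exact 95% intervals for counting error. In the *Sirt7*-/- samples the members sit at 21.8, 8.97 and 20.5%, below the cytosolic ribosomal protein genes (39.7, 33.3 and 35.9%) in each.

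Genes of both subunits had peaks. Large-subunit genes with a peak numbered 3, 0 and 0 of 49 in WT replicates 2, 3 and 4 and 11, 4 and 8 in *Sirt7*-/- replicates 2, 3 and 4. Small-subunit genes numbered 2, 1 and 0 of 29 in WT and 6, 3 and 8 in *Sirt7*-/- samples. The *Sirt7*-/- shares were 15.6 ± 7.17% (SD, n = 3) for the large and 19.5 ± 8.68% for the small subunit. The large subunit was higher in 1 of 3 samples, by -3.89 ± 6.68 points on average, a difference smaller than its spread (exact sign-flip permutation p = 0.5, where 3 samples allow 0.25 at the least).

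In each *Sirt7*-/- list fewer mitochondrial than cytosolic ribosomal protein genes had a peak. Among 78 cytosolic ribosomal protein genes, 31, 26 and 28 had a peak in *Sirt7*-/- replicates 2, 3 and 4, and 17, 1 and 1 in the WT samples. The members' share was lower in 3 of 3 *Sirt7*-/- samples, by 19.2 ± 4.62 points in size (exact sign-flip permutation p = 0.25, the smallest 3 samples allow). Nuclear genes for respiratory chain subunits, here including those of ATP synthase, lay between, with 19, 14 and 19 of 76. The members were lower than these in 3 of 3 samples, by 5.71 ± 3.3 points in size (p = 0.25 in the same exact test). Against all protein-coding genes they were higher in 2 of 3 samples, by 5.54 ± 5.45 points (exact p = 0.5).

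Of the 78 members, 29 had a peak in at least 1 of 6 samples (37.2%, against 19.7% of all protein-coding genes) and 49 had none. A peak in at least 1 *Sirt7*-/- sample was found at 28 (35.9%, against 19.3%), in at least 1 WT sample at 6 (7.69%, against 5.12%), and in all 3 *Sirt7*-/- samples at 4 (5.13%, against 5.09%). The members' share was above the background for a call in at least 1 sample and level with it for a call in all 3. The only member with a peak in all 3 *Sirt7*-/- and no WT samples was *Mrps6* (1.28%, against 2.45%). With 3 samples a side, a gene called in 3 of 3 against 0 of 3 reaches an exact Fisher p of 0.1, so no single member could pass a test.

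Most members with a *Sirt7*-/- peak had it in a single sample. Of the 28 members with a *Sirt7*-/- peak, 20 (71.4%) had it in 1 sample, 4 (14.3%) in 2 and 4 (14.3%) in 3. Among all 4136 protein-coding genes with a *Sirt7*-/- peak these shares were 46.5, 27.1 and 26.4%, and for cytosolic ribosomal protein genes 43.5, 28.3 and 28.3%. Replicates 2 and 4 shared 6 members, which is 35.3% of the 17 in replicate 2 and 37.5% of the 16 in replicate 4, where all protein-coding genes shared 57.1 and 64.2%. Replicate 3 shared 5 of its 7 members (71.4%) with replicate 2 and 5 (71.4%) with replicate 4, where all protein-coding genes of replicate 3 shared 68.5 and 64.7%. The members shared with replicate 3 were 29.4% of those in replicate 2 and 31.2% of those in replicate 4, against 50.5 and 53.6% over all protein-coding genes. Repetition of the members was thus lower than over all genes for the calls of replicates 2 and 4, and not lower for those of replicate 3. These are descriptions of the lists, and the difference in repetition was not tested.

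**Figure D2:**
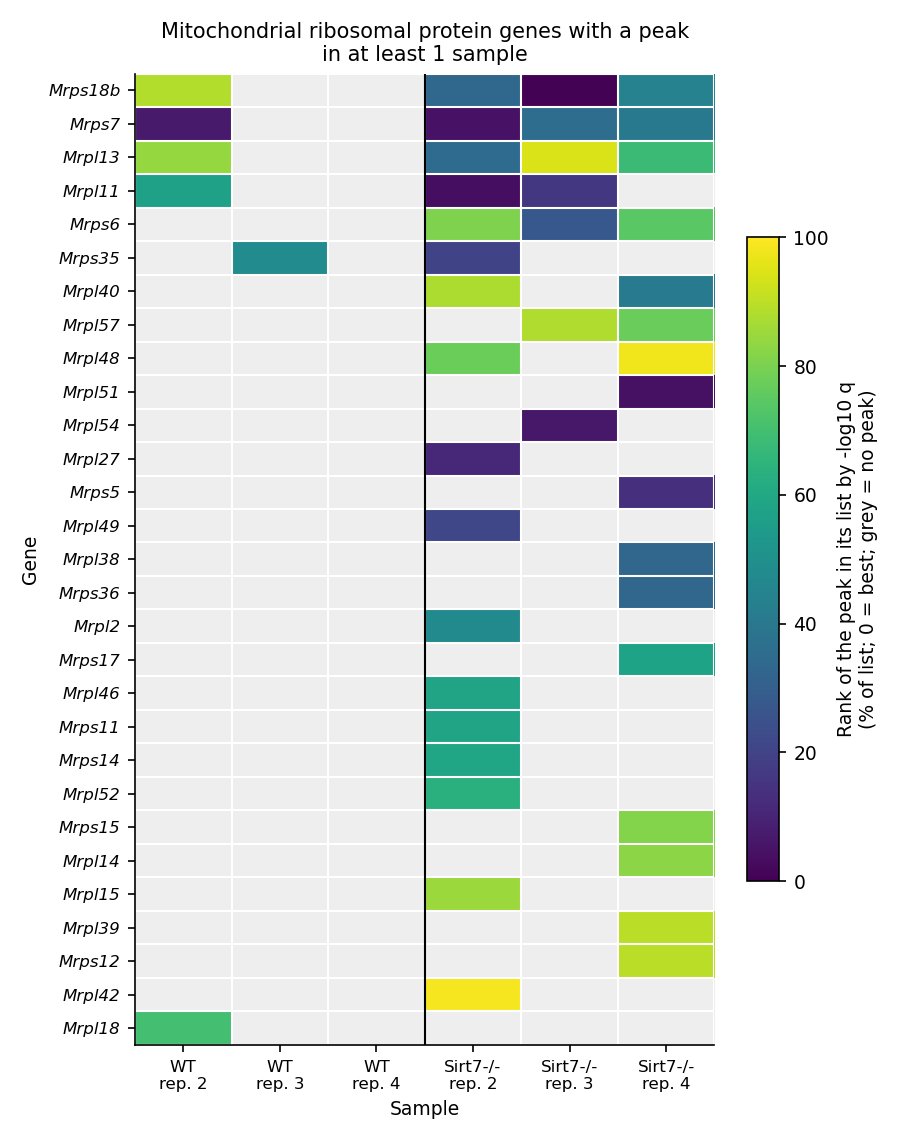
The 29 mitochondrial ribosomal protein genes with a peak (rows, ordered by the number of samples called and then by rank) in the 3 WT and 3 *Sirt7*-/- samples (columns), coloured by the peak's rank in its own list by -log10 q (% of the list, 0 being best, grey for no peak). Rows filled in all 3 *Sirt7*-/- columns are 4, and 19 rows are filled in a single *Sirt7*-/- column alone.

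Small-subunit genes held 3 of the 4 members called in every *Sirt7*-/- sample. These were 3 of 29 small-subunit genes (10.3%, exact interval 2.19 to 27.4%), against 1 of 49 large-subunit genes (2.04%, 0.0517 to 10.9%). Both intervals held the 5.09% of all protein-coding genes and they overlapped each other. A difference between the subunits in this count was not tested. *Mrps18b* encodes one of the S18-type proteins of the small subunit, and its start is at chr17:35916440 (mm10, minus strand). Its peak was 1345 bp wide in WT replicate 2 (fold 4.0, rank 803 of 906). In *Sirt7*-/- replicates 2, 3 and 4 the peak was 905, 279 and 1242 bp wide, with folds of 4.53, 7.84 and 4.09. The peak of replicate 3, at chr17:35916437-35916715, had a -log10 q of 8.82, ranked 8 of 2045 and was the narrowest of the 4. Ranks in replicates 2 and 4 were 945 of 2840 and 1152 of 2591, so only replicate 3 put this gene near the top of a list. All 4 peaks covered the start and lay over most or all of the window printed above. *Ppp1r10*, which encodes a regulatory subunit of protein phosphatase 1, starts 72 bp away on the opposite strand. All 4 peaks covered that start as well, and it was the closer one to the peak's midpoint in all 4 samples.

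*Mrps7*, the counterpart of bacterial S7, a protein of the head of the small subunit, starts at chr11:115604140 (plus strand). Its peak in WT replicate 2 was 374 bp wide with a fold of 5.02 and ranked 67 of 906. In *Sirt7*-/- replicates 2, 3 and 4 the widths were 909, 680 and 421 bp, the folds 5.57, 4.74 and 4.37, and the ranks 138 of 2840, 734 of 2045 and 1044 of 2591. The gene thus stood high in one list of each genotype, both of them replicate 2. *Mrps7* was the nearest protein-coding start in all 4 samples, with ties in distance settled by the peak's midpoint. The YY1-type letters of its window lay inside all 4 peaks. *Gga3*, which encodes a Golgi adaptor, starts 377 bp away on the opposite strand and within 3 kb of each peak. The 4 peaks therefore cannot be assigned to *Mrps7* alone.

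*Mrps6*, the counterpart of bacterial S6, starts at chr16:92058336 (plus strand). No WT sample had a peak there, and *Sirt7*-/- replicates 2, 3 and 4 had peaks 490, 233 and 672 bp wide with folds of 3.55, 5.2 and 3.71. Their ranks were 2288 of 2840, 566 of 2045 and 1926 of 2591, which is 80.6, 27.7 and 74.3% of the way down the list. The peaks of replicates 2 and 4 covered the whole window shown, and that of replicate 3 began 39 bp downstream of the start. *Slc5a3*, the gene of an inositol transporter, starts 14 bp away on the same strand, so the peaks cannot be assigned to one of them. The only member with a peak in every *Sirt7*-/- but no WT sample was therefore called at a start with a close neighbour, by peaks in the lower 50% of their lists in replicates 2 and 4 and in the upper 50% in replicate 3.

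*Mrpl13*, the counterpart of bacterial L13, was the one large-subunit gene called in all 3 *Sirt7*-/- samples (start chr15:55557312, minus strand). Its peak was 372 bp wide in WT replicate 2 (fold 4.14, rank 761 of 906) and 231, 373 and 253 bp wide in *Sirt7*-/- replicates 2, 3 and 4. The *Sirt7*-/- folds were 4.23, 4.09 and 3.91, and the ranks 993 of 2840, 1933 of 2045 and 1763 of 2591. All 4 peaks lay upstream of *Mrpl13*, nearer to *Mtbp*, an opposite-strand gene that starts 92 bp away and encodes an MDM2-binding protein.

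*Mrpl11*, whose protein sits at the base of the stalk where translation factors bind, starts at chr19:4962152 (plus strand) with no other protein-coding start within 19025 bp. Its peak was 309 bp wide in WT replicate 2 (fold 4.13, rank 519 of 906). The peaks in *Sirt7*-/- replicates 2 and 3 were 449 and 410 bp wide with folds of 5.9 and 5.75, ranking 108 of 2840 and 333 of 2045, and replicate 4 had none. *Mrps35*, which encodes a protein without a bacterial counterpart, starts at chr6:147042728 (plus strand) and likewise stands alone, 10191 bp from the next start. It had a peak 241 bp wide in WT replicate 3 (fold 4.9, rank 31 of 64) and one of 302 bp in *Sirt7*-/- replicate 2 (fold 4.88, rank 585 of 2840). At both genes the member was the nearest protein-coding start in every call.

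The WT peaks at *Mrps18b*, *Mrps7*, *Mrpl13*, *Mrpl11* and *Mrps35* overlapped every *Sirt7*-/- peak of the same gene. The sixth member with a WT peak was *Mrpl18*, whose product is a protein of the central protuberance of the large subunit. Its peak in WT replicate 2, at chr17:12916770-12916982, was 213 bp wide (fold 4.13, rank 637 of 906) and lay 805 bp inside the gene, nearer to the start of *Tcp1*. No *Sirt7*-/- sample had a peak at *Mrpl18*.

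Peaks in at least 2 *Sirt7*-/- samples were found at 8 members (10.3%, against 10.3% of all protein-coding genes). Among these, *Mrpl40*, *Mrpl57* and *Mrpl48*, of the large subunit, had peaks in 2 *Sirt7*-/- and no WT samples. *Mrpl40* (start chr16:18876637) had peaks of 234 bp in replicate 2 (fold 3.28, rank 2493 of 2840) and 313 bp in replicate 4 (fold 3.98, rank 1061 of 2591). Both lay 593 bp or more upstream, nearer to *Hira*, the gene of the chaperone for histone H3.3, which starts 113 bp away on the other strand. *Mrpl57* (start chr14:57826228) had peaks of 444 bp in replicate 3 (fold 4.25, rank 1803 of 2045) and 520 bp in replicate 4 (fold 3.75, rank 2001 of 2591), and both covered its start. They also covered the start of *Ska3*, 63 bp away on the other strand. *Mrpl48* (start chr7:100608301) had a peak of 1016 bp in replicate 2 (fold 3.82, rank 2198 of 2840) and one of 367 bp in replicate 4 (fold 3.54, rank 2538 of 2591). The 2 did not touch, the first lying nearer to *Rab6a* and the second over the *Mrpl48* start.

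A peak in 1 *Sirt7*-/- sample and no other sample was found at 19 members (24.4%, against 8.16% of all protein-coding genes). Some of these members had among the best ranks of the group. *Mrpl51* had a peak of 265 bp in replicate 4 (fold 5.71, rank 112 of 2591), nearer to *Ncapd2*, a condensin gene 100 bp away. *Mrpl54* had one of 243 bp in replicate 3 (fold 6.39, rank 133 of 2045), with *Apba3* starting 9 bp away on the other strand. *Mrpl27*, the counterpart of bacterial L27 at the peptidyl transferase centre, had one of 209 bp in replicate 2 (fold 5.11, rank 330 of 2840), nearer to *Eme1*, a DNA endonuclease subunit gene 66 bp away. A high rank in one list was thus not always accompanied by a call in the others.

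The remaining 16 members with a peak in 1 *Sirt7*-/- sample alone were *Mrpl2*, *Mrpl14*, *Mrpl15*, *Mrpl38*, *Mrpl39*, *Mrpl42*, *Mrpl46*, *Mrpl49*, *Mrpl52*, *Mrps5*, *Mrps11*, *Mrps12*, *Mrps14*, *Mrps15*, *Mrps17* and *Mrps36*, the last since recognised as a subunit of alpha-ketoglutarate dehydrogenase. *Mrps12*, the counterpart of S12 at the decoding centre, starts 136 bp from *Sars2*, the mitochondrial seryl-tRNA synthetase gene, on the opposite strand. *Mrpl49* starts 192 bp from *Fau*, a gene of the cytosolic ribosome, and its peak lay nearer to *Fau*. *Mrpl46* and *Mrps11*, of different subunits, start 42 bp apart on opposite strands and shared 1 peak, at chr7:78782887-78783453 in replicate 2 (567 bp, fold 4.07), so 46 calls of a member in a sample came from 45 peaks.

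The 49 members with no peak included 31 of the large subunit, among them *Mrpl3*, *Mrpl4*, *Mrpl10*, *Mrpl12*, *Mrpl16*, *Mrpl22*, *Mrpl23* and *Mrpl24*. The other 18 were of the small subunit, among them *Mrps2*, *Mrps9*, *Mrps10* and *Mrps16*. Of the S18 group, *Mrps18a* and *Mrps18c* had none, in contrast to *Mrps18b*. The *Mrps18b* peaks all covered its start and that of *Ppp1r10*, which was closer to their midpoints.

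The members' peaks were spread over their lists. Over the 46 calls, fold over input ranged from 3.28 to 7.84 and -log10 q from 1.06 to 8.82, and 23 calls had a -log10 q of at least 2. Of the 40 *Sirt7*-/- calls, 5 were in the best 10% of their list and 20 in the lower 50%, close to the 10 and 50% that define these ranges. The median fold was 4.06, 5.2 and 3.94 in *Sirt7*-/- replicates 2, 3 and 4, against 4.08, 4.69 and 4.11 for all promoter peaks, which left no difference beyond the spread (0.107 ± 0.357, exact sign-flip permutation p = 1.0).

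The median width of the members' peaks was below that of all promoter peaks in each *Sirt7*-/- list. Their median width was 310, 373 and 358 bp in replicates 2, 3 and 4, against 491, 456 and 468 bp for all peaks within 3 kb of a protein-coding start. The difference in medians was -125 ± 50.6 bp (SD, n = 3), with the members narrower in 3 of 3 samples (exact sign-flip permutation p = 0.25, the smallest 3 samples allow). In WT replicate 2 the medians were 372 bp over 5 member peaks and 376 bp over all, and the 1 peak in WT replicate 3 was 241 bp wide against a median of 272 bp.

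**Figure D3:**
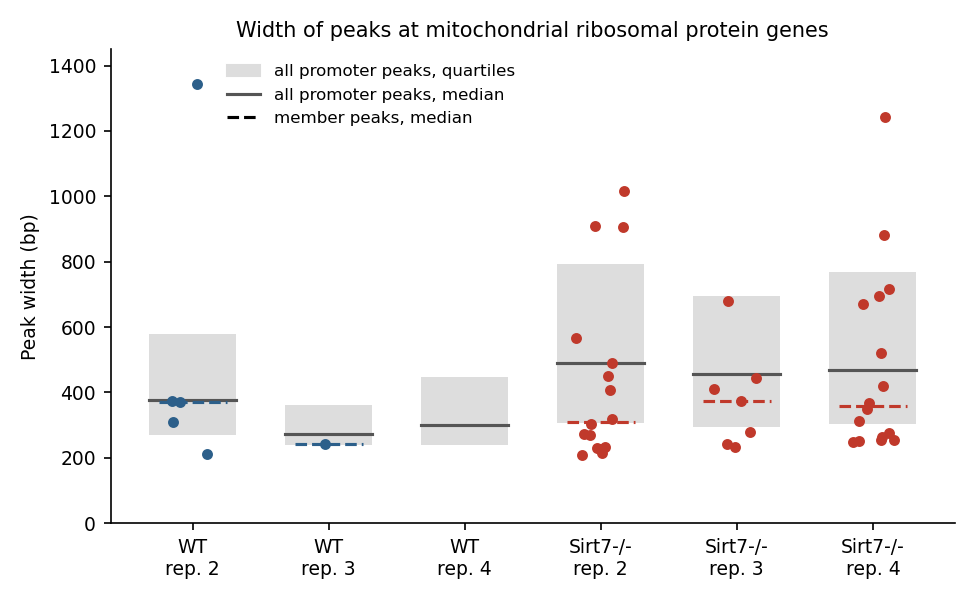
Width (bp) of each H3K36ac peak at a mitochondrial ribosomal protein gene (points) in each sample, with the members' median (dashed line) and the median (solid line) and quartiles (grey box) of all peaks within 3 kb of a protein-coding start. The members' medians of 310, 373 and 358 bp lie below the solid lines of 491, 456 and 468 bp in the 3 *Sirt7*-/- samples.

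Many members share a promoter region with a gene on the other strand. A protein-coding start on the opposite strand within 1 kb was found for 32 of 78 members (41.0%) and for 2330 of all protein-coding genes (10.9%). A *Sirt7*-/- peak was present at 16 of these 32 members (50%, exact 95% interval 31.9 to 68.1%) and at 12 of the other 46 (26.1%, 14.3 to 41.1%). Among all protein-coding genes the shares were 41.6% (39.6 to 43.6%) with such a neighbour and 16.5% (16.0 to 17.1%) without one. Within each class the members' interval held the share of all genes.

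Split this way, 10, 5 and 10 of the 32 members with an opposite-strand neighbour had a peak in *Sirt7*-/- replicates 2, 3 and 4 (31.2, 15.6 and 31.2%, against 28.8, 21.4 and 26.3% of all such genes). Of the 46 without one, 7, 2 and 6 had a peak (15.2, 4.35 and 13.0%, against 11.3, 8.31 and 9.96%). In both classes the members were above the background in replicates 2 and 4 and below it in replicate 3. The arrangement of neighbouring starts moved with the members' share of called genes, and its part in that share was not tested.

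All 46 calls lay within 1 kb of the member's start, and 19 covered it. The member was the nearest protein-coding start in 27 calls and another gene was nearer in 19. At 10 of the 29 members another gene was nearer in every sample called. In 32 of the 46 calls 2 or more protein-coding starts lay within 3 kb of the peak. None of these 32 calls can be assigned to the member alone, whichever start was nearer.

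H3K36ac peaks at protein-coding starts mostly lay downstream of the start, and at the members a smaller share did so in each *Sirt7*-/- sample. The midpoint was downstream for 10 of 17, 3 of 7 and 6 of 16 members in *Sirt7*-/- replicates 2, 3 and 4, a mean of 46.4 ± 11.1% against 77.3 ± 0.346% of all protein-coding genes with a peak. The members were lower in 3 of 3 samples (difference -30.9 ± 11 points, exact sign-flip permutation p = 0.25, the smallest possible). The median midpoint averaged 8.33 ± 100 bp from the start for the members and 293 ± 15.9 bp for all.

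The same division by neighbour ran through these positions. For members with an opposite-strand start within 1 kb, 26.7 ± 11.5% of midpoints lay downstream, and the median midpoint averaged -113 ± 16.8 bp, on the upstream side. For members without one, 84.1 ± 16.7% lay downstream and the median averaged 188 ± 33.9 bp. All protein-coding genes gave 50.4 ± 0.802% and 85.8 ± 0.611% in the 2 classes. Peaks of *Mrpl11* and *Mrps35*, without such a neighbour, had their midpoints inside the gene, and those of *Mrpl13* and *Mrpl40*, with one, lay upstream. Single *Sirt7*-/- calls also ran the other way. Without such a neighbour these were *Mrpl39* (midpoint -222 bp) and *Mrps6* in replicates 2 and 4 (-8 and -6 bp). With one they were *Mrpl48* in replicate 2 (736 bp), *Mrpl14* (612 bp), *Mrpl2* (264 bp), *Mrpl54* (137 bp), *Mrpl27* (130 bp), *Mrps12* (76 bp) and *Mrps11* (39 bp).

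**Figure D4:**
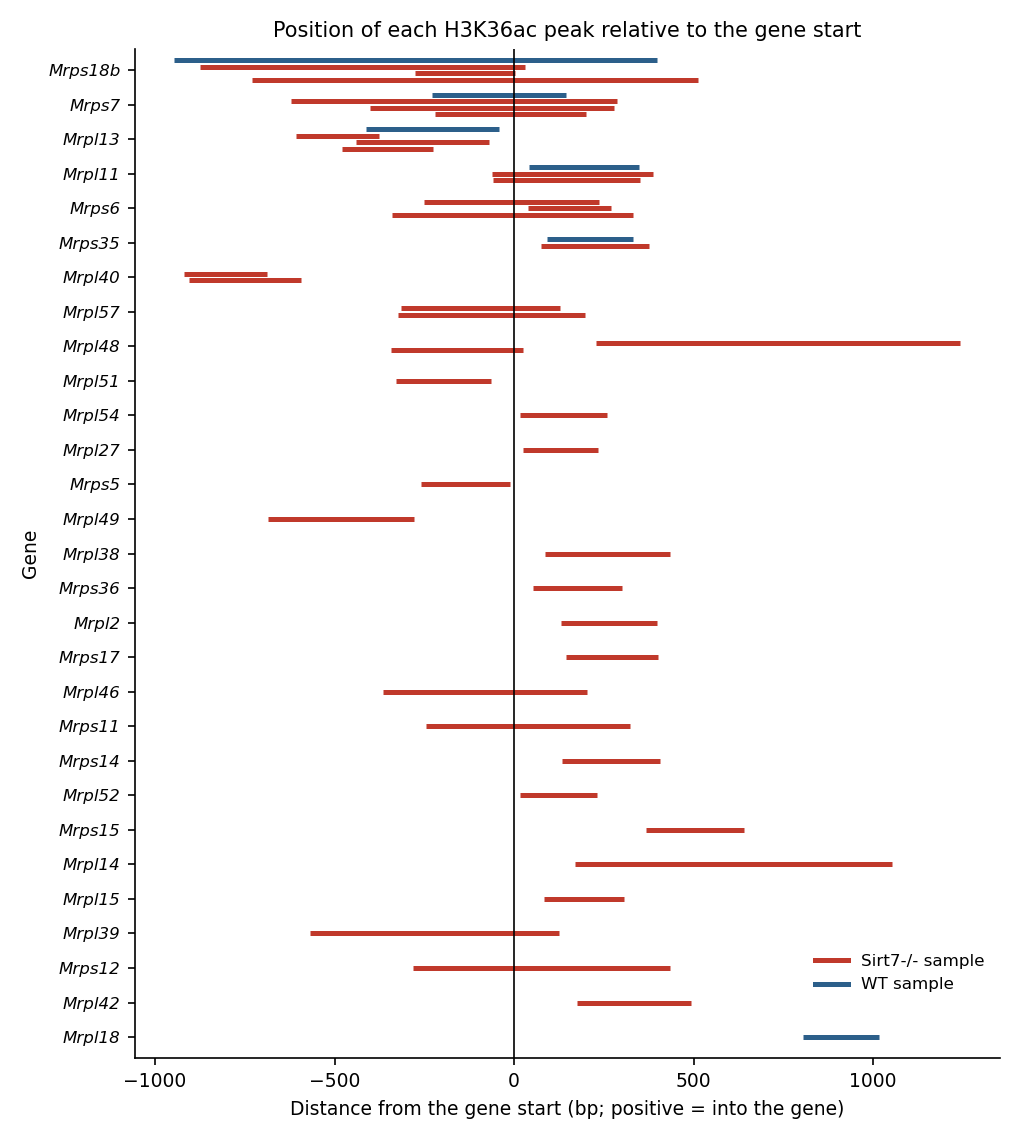
Span of each H3K36ac peak relative to the start of the mitochondrial ribosomal protein gene (bp, positive into the gene), 1 bar per call, with WT samples in blue and *Sirt7*-/- samples in red, for the 29 members with a peak. All 46 bars reach within 1 kb of the start, 19 cross it, and those of *Mrpl13* and *Mrpl40* lie wholly upstream.

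The promoters shown above belong to a group rich in the letters searched. A RefSeq promoter sequence was found for 69 members, and for 55 its start lay within 100 bp of the one tested. ETS letters were present in 6 of 21 such members with a peak (28.6%) and in 15 of 34 without one (44.1%), against 12% of all 13537 protein-coding promoters and 22.1% of the 2587 with a peak. NRF1-type letters were present in 9.52 and 11.8% of members with and without a peak, against 3.78% of all promoters and 7.58% of those with a peak. YY1-type letters were present in 28.6 and 17.6%, against 6.63 and 10.2%. For the NRF1-type letters the 9.52% stood for 2 of 21 promoters.

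The median number of CG dinucleotides was 23 in members with a peak, 21 in members without, 25 in all promoters with a peak and 12 in all promoters. A match of letters is a description of the sequence and shows no binding.

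Other genes of mitochondrial translation are set beside the 19.3% of all protein-coding genes with a *Sirt7*-/- peak. Of 5 proteins of the particle that do not carry an Mrpl or Mrps symbol, *Dap3*, *Chchd1* and *Ptcd3* (60%) had a *Sirt7*-/- peak, *Dap3* in all 3 *Sirt7*-/- samples and in a WT sample. Of 28 translation factors and mitochondrial aminoacyl-tRNA synthetases, 8 (28.6%) had one, *Fars2* and *Ears2* in all 3 *Sirt7*-/- samples and *Ears2* in no WT sample. Of 28 assembly factors, which build the particle on its RNAs, 5 (17.9%, below that background) had one, *Mterf3* in all 3 and in a WT sample. Of 7 genes of mitochondrial transcription, only *Tfam*, the factor that packages and transcribes mitochondrial DNA, had one (14.3%), in 2 samples. In *Sirt7*-/- samples the translation factors had peaks at 1.55 ± 0.247 times the share of all protein-coding genes and the assembly factors at 0.829 ± 0.455 times (SD, n = 3), against 1.44 ± 0.451 for the 78 ribosomal proteins.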

How the data were processed

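H3K36ac ChIP-seq peak lists of 3 WT and 3 *Sirt7*-/- samples were used, and inputs entered only through the authors' peak calling. The submitters' processing notes name MACS2 2.2.5, bedtools 2.27.1, Bowtie2 2.4.4.1, deepTools 3.5.1, SAMtools 1.19.2, FastQC 0.12.1, ChIPseeker 1.42.1 and Trim Galore 0.6.6, with mm10. The authors kept reads of mapping quality 30 or more and called broad peaks (broad cutoff 0.1) per sample against its own input, without pooling and without scaling to the spike-in. For every peak the deposited lists hold a position, a score (not used), the fold over input (a ratio) and the -log10 of p and q. Fold and -log10 q were used to describe and rank peaks within a list only. The study gives clean reads per library before duplicates and low-quality alignments were removed, which were not used here. The reads that entered peak calling are not given in the sources used here, so the depth behind a call is unknown. Intervals and floors cover counting error only. The data are peak calls, so a sample's count depends on its depth and background.

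Gene starts were read from RefSeq on GRCm38.p6 (mm10 coordinates), as a table with 1 start per gene but no exons, so exons and introns are not given. Strand came from the RefSeq promoter table for 17492 protein-coding genes and from GENCODE by symbol for 3976, and 21468 of 21887 were used. Other listed starts were tried as an alternative. Opposite-strand neighbours were protein-coding starts within 1 kb on either side. The nearest start of a peak was the one with the shortest gap to it. Where gaps tied, as when a peak covered more than 1 start, the start closest to the peak's midpoint was taken.

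Groups were compared by two-sided exact permutation over samples, and lists within the *Sirt7*-/- samples by exact sign-flip permutation, with no adjustment since none could pass 0.05. Replicates were different mice. Shares have exact 95% binomial intervals. Named with values were members called in all 3 *Sirt7*-/- or in any WT sample, in full for the first 12 by samples called, then by mean rank in the *Sirt7*-/- lists, and 6 promoters. Members and gene lists were chosen with earlier results of these data known. The assignment of peaks to gene starts was tested on simulated peaks planted near known starts. SciPy 1.17.1, NumPy 2.4.6, pandas 2.3.3 and matplotlib 3.10.9 were run in Python 3.11.15.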

Additional observations from a re-analysis of the deposited data

How the results depend on the processing

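With lists of equal length (the best 64 peaks of each sample) the difference in members per sample was 0, with a mean of 0.333 in both genotypes. The difference in their share relative to all protein-coding genes was also 0. At this length only 0.284 to 0.349% of all protein-coding genes had a peak in a list, and most lists held no member. A difference in members could thus hardly appear, and the part of list length in the excess of 11.3 members was not tested. Under the other settings the difference in members stayed positive, from 3.67 with peaks of at least 500 bp to 12 with either gene end taken as the start, and from 9.5 to 14.5 with 1 sample left out. All protein-coding genes moved the same way. With peaks of at least 500 bp, 1.49, 0.0559 and 0.279% of them had a peak in WT replicates 2, 3 and 4. In *Sirt7*-/- replicates 2, 3 and 4 it was 6.64, 4.4 and 5.62%. The sign of the difference in members is thus not particular to the members. The difference in relative share turned positive with peaks of at least 500 bp (0.588) and with peaks over the start (1.32), and ranged from -1.32 to 0.708 with 1 sample left out, positive only without WT replicate 3. None of these differences could pass the threshold. The count of members with a peak in every *Sirt7*-/- but no WT sample, 1 in the report, was 0 with equal lists, with peaks of at least 500 bp, with peaks over the start and with the nearest start only, settings under which 0.00466, 1.12, 0.498 and 1.98% of all protein-coding genes met the same criterion. It was 2 (*Mrps6* and *Mrpl48*) with any listed start (2.61% of all genes), an alternative chosen after seeing the data, and 1 to 4 with 1 sample left out. These were 4 without WT replicate 2 (4.1% of all genes), 3 without *Sirt7*-/- replicate 3 (4.38%) and 2 without *Sirt7*-/- replicate 2 (3.38%). With -log10 q of at least 2 it was 1 (1.68% of all genes met the criterion), but *Mrps18b* in place of *Mrps6*. Deviations of same-numbered samples had small positive correlations (0.0281, 0.0197 and 0.00767), beside -0.0275 to 0.00912 for differently numbered pairs. Whether same-numbered samples belong together was not tested. With the replicate number as a block the differences were 11.3 (exact sign-flip permutation p = 0.25) and -0.397 (p = 1.0). With 3 samples a genotype and peak calls alone, absence of a call is not absence of the mark.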
